A study of Mus musculus with 12 samples.

Results

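The nuclear genes of oxidative phosphorylation were taken from a mouse bulk RNA-seq data set as every gene whose symbol starts with Nduf plus a, b, c, s or v and a number, with Cox4 to Cox8, with Uqcr or with Atp5, or is one of Sdha to Sdhd; symbols containing -ps were left out. The rule chose 83 of the 33100 genes in the count table. By symbol, 37 belonged to complex I, 4 to complex II, 8 to complex III, 17 to complex IV and 17 to complex V. The libraries fell into 4 groups of 3, all labelled as NK cells (natural killer cells, lymphocytes that kill infected and transformed cells): tumor cKO, tumor WT, spleen cKO and spleen WT. The cKO mice carried a conditional knockout of a single gene, and WT mice were the controls. The labels used here give no Cre driver, tumor model, age or sex. The targeted gene is not reported, and its level was not used to check the genotypes. Whether the 3 libraries of a group are 3 animals is not stated, so the p-values measure the spread between these libraries, which may be technical.

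Oxidative phosphorylation takes place in the inner mitochondrial membrane. Complex I (NADH dehydrogenase) and complex II (succinate dehydrogenase) pass electrons to coenzyme Q, complex III passes them on to cytochrome c, and complex IV (cytochrome c oxidase) gives them to oxygen, while complex V (ATP synthase) uses the resulting proton gradient to make ATP. Most subunits are encoded in the nucleus and a few in mitochondrial DNA; complex II is encoded in the nucleus entirely. Some complex IV subunits come as a common form and a form found mainly in muscle, lung, testis or other particular tissues. Transcription factors NRF1, YY1 and the ETS family member GABP are known to bind promoters of many of these genes.

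The promoters of 5 members that stand out below are printed here so that their sequences can be read against their behaviour: Atp5b, Ndufa10 and Ndufv1 were higher in tumor cKO than in tumor WT, Cox7a2l was lower, and Atp5k had the largest tumor rise over spleen among members with reads in every group. Each is the RefSeq window of 250 bases before to 50 after the start of the gene on build GRCm38.p6, written 5′ to 3′ on the gene's own strand, at chr10:128083057-128083356 (plus strand, Atp5b), chr1:92473709-92474008 (minus, Ndufa10), chr19:4012706-4013005 (minus, Ndufv1), chr17:83514284-83514583 (minus, Cox7a2l) and chr5:108434350-108434649 (minus, Atp5k). Capitals mark matches to the cores GCGCATGC (NRF1), AANATGGC (YY1) and CCGGAAG (ETS), on either strand.
Atp5b: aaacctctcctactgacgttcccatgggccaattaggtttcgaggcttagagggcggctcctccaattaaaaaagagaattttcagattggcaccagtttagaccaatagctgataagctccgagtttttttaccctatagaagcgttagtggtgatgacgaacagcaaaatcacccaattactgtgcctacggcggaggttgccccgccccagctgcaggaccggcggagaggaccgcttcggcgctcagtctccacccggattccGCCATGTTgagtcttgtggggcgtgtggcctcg
Ndufa10: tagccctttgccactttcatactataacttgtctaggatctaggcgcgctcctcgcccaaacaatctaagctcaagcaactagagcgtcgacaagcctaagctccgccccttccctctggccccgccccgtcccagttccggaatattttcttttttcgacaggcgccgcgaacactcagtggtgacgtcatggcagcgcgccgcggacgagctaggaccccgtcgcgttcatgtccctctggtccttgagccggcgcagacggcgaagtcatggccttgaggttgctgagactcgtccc
Ndufv1: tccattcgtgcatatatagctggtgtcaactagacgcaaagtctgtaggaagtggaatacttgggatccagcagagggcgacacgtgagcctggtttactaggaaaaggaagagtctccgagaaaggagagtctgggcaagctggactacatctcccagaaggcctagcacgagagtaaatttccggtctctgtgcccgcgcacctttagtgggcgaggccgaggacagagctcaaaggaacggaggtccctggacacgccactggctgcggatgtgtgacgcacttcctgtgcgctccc
Cox7a2l: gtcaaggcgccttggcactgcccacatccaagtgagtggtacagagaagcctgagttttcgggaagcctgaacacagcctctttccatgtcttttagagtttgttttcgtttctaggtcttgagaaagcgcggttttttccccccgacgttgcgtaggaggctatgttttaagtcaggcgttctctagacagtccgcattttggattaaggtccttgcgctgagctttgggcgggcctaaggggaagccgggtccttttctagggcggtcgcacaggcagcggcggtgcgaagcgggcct
Atp5k: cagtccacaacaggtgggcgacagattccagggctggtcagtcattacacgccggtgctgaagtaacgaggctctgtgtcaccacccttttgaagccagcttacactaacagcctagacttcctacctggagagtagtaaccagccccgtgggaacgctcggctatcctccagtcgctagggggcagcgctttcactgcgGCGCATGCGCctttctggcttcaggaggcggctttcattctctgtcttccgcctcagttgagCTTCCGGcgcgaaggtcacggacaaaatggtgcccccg
Atp5b held 1 YY1 core, which lies after the start site, Atp5k held 2 overlapping NRF1 cores, 1 on each strand, and 1 ETS core, and the other printed windows held none of the searched letters.

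Of the 83 members, 69 matched a window by symbol or by synonym and position. An NRF1 core was in 14.5% of the 69 member windows and in 5.05% of the windows of 10705 other tested genes. A YY1 core was in 23.2% of member windows and in 8.57% of the others, and an ETS core in 21.7% of member windows and in 17.7% of the others. At least 1 of these cores was in 35 of the 69 member windows, or 50.7%, against 27.9% of the other tested genes. Only 8 of the 15 members called higher in tumor cKO than in tumor WT had a window, against 69 of all 83 members. Of those 8 windows 2 held a core, against 33 of the other 61. These are letter matches and not measured binding sites, and no test was run on them.

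Libraries held between 9542329 and 37118494 counts. Libraries of the same group correlated between 0.9416 and 0.9776 over tested genes, lowest in tumor WT. The tumor libraries carried few NK transcripts and many of other cells. The summed level of 10 NK cell markers was 59.4 to 87.6 CPM (counts scaled to the library's composition-corrected total) in tumor cKO and 81.1 to 296 in tumor WT, against 1409 to 1805 in spleen cKO and 1343 to 1737 in spleen WT, and none of the 10 was at 0 in any group. Ncr1, which encodes the NK receptor NKp46, was at 0.273 to 0.499 in tumor cKO and 1.06 to 1.21 in tumor WT, against 59 to 100 in spleen cKO and 83.2 to 132 in spleen WT, on the composition-scaled RPKM scale explained below. The 12 markers of macrophages and monocytes summed to 924 to 2580 CPM in tumor cKO and 6358 to 13293 in tumor WT, against 319 to 428 in spleen cKO and 254 to 294 in spleen WT. The 10 B cell markers summed to 2712 to 3154 in spleen cKO and 3029 to 3443 in spleen WT, against at most 73.1 in a tumor library. In bulk RNA, fewer cells of a type and less RNA per cell cannot be told apart, and the tumor and spleen libraries therefore compare mixtures labelled as NK cells.

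Levels are given below as composition-scaled RPKM: reads per kilobase of the gene's listed length, scaled to library totals corrected by TMM factors, which correct for a few abundant genes taking up reads. A gene was called when its adjusted p from edgeR's quasi-likelihood test was under 0.05 over the 16831 genes tested. In all, 81 members were tested, and Cox7b2 and Cox8b had too few counts. Limma, cited below as an alternative, was run on the deposited RPKM, which carry no TMM factor. Its calls share that setting with the edgeR fit without a composition factor, also cited below. Together the 83 members took 1.02% ± 0.0978 of all counts in tumor cKO, 0.707% ± 0.0553 in tumor WT, 0.498% ± 0.00485 in spleen cKO and 0.493% ± 0.0313 in spleen WT (SD, n = 3 each). The groups thus formed 3 steps, with no overlap between tumor cKO, tumor WT and the spleen libraries, and both spleen groups on the same step.

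**Figure D1:**
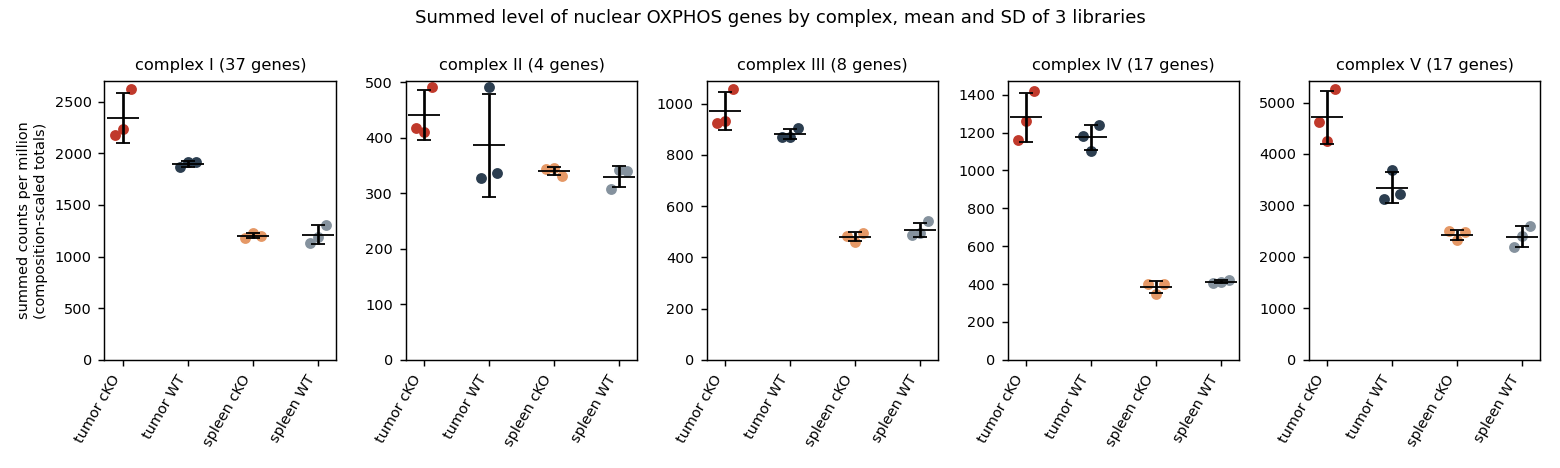
Summed level of the members of each complex in CPM with composition-scaled totals (vertical axes, each from 0), with 1 point per library and the mean and SD of 3 libraries, for tumor cKO, tumor WT, spleen cKO and spleen WT. Complexes I, III and V separate tumor cKO from tumor WT with no overlap, and complexes II and IV do not.

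By complex, the step in summed level between tumor cKO and tumor WT was uneven. Such sums weigh genes by their counts. Atp5b had the most counts in complex V, 140673 in tumor cKO and 86639 in tumor WT before scaling. Complex V members summed to 4710 ± 514 CPM in tumor cKO and 3342 ± 300 in tumor WT, complex I members to 2346 ± 242 in tumor cKO and 1898 ± 30.4 in tumor WT, and complex III members to 971 ± 75.5 in tumor cKO and 881 ± 21.1 in tumor WT (SD, n = 3 each); none of these sums overlapped between the groups. Complex IV reached 1282 ± 129 in tumor cKO and 1175 ± 67.8 in tumor WT, and complex II 440 ± 45 in tumor cKO and 386 ± 92 in tumor WT, and both of these overlapped. Median log2 fold changes of tumor cKO over tumor WT weigh each tested gene alike. They were 0.20 in complex I, 0.06 in II, 0.26 in III, -0.04 in IV and 0.23 in V. Relative to spleen, the complex IV sum differed most, with mean tumor sums 3.34 times those of spleen in cKO and 2.85 times in WT. It was 384 ± 30.6 in spleen cKO and 412 ± 8.7 in spleen WT. The complex II sum differed least, 1.29 times in cKO and 1.17 times in WT, at 340 ± 7.32 in spleen cKO and 330 ± 18.9 in spleen WT. Sdha, the most abundant complex II member, gave a log2 fold change of -0.12 for tumor WT over spleen WT. Sdhb, Sdhc and Sdhd gave 0.66, 1.76 and 1.05. By median log2 fold change in WT, complex II (0.85) lay above complexes I and V (0.73 each). In cKO its median of 0.84 was the lowest of the complexes.

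In tumor, 15 of the 81 tested members were called higher in cKO than in WT and 3 were called lower. Over all genes, 38.0% were called, 16.4% higher and 21.6% lower, so that the 18.5% of members called higher is near the share of all genes, while the 3.7% called lower is not. The median log2 fold change of the members was 0.20, against -0.12 over all genes, and 54 members had a positive value and 27 a negative one. The count of higher members rested partly on 1 library: without tumor cKO replicate 3 it was 9. The count of lower members was 1 without tumor cKO replicate 1 or 3 or tumor WT replicate 1 or 3, and 5 without tumor WT replicate 2. With library totals alone and no composition factor, 26 members were called higher and 1 lower. In that fit 3740 of the 16831 genes were called higher, against 2761 with the factor, and 2767 lower, against 3638. The median of the members was then 0.38 and that of all genes 0.06. The distance between members and all genes was 0.32, against 0.31 with the factor.

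**Figure D2:**
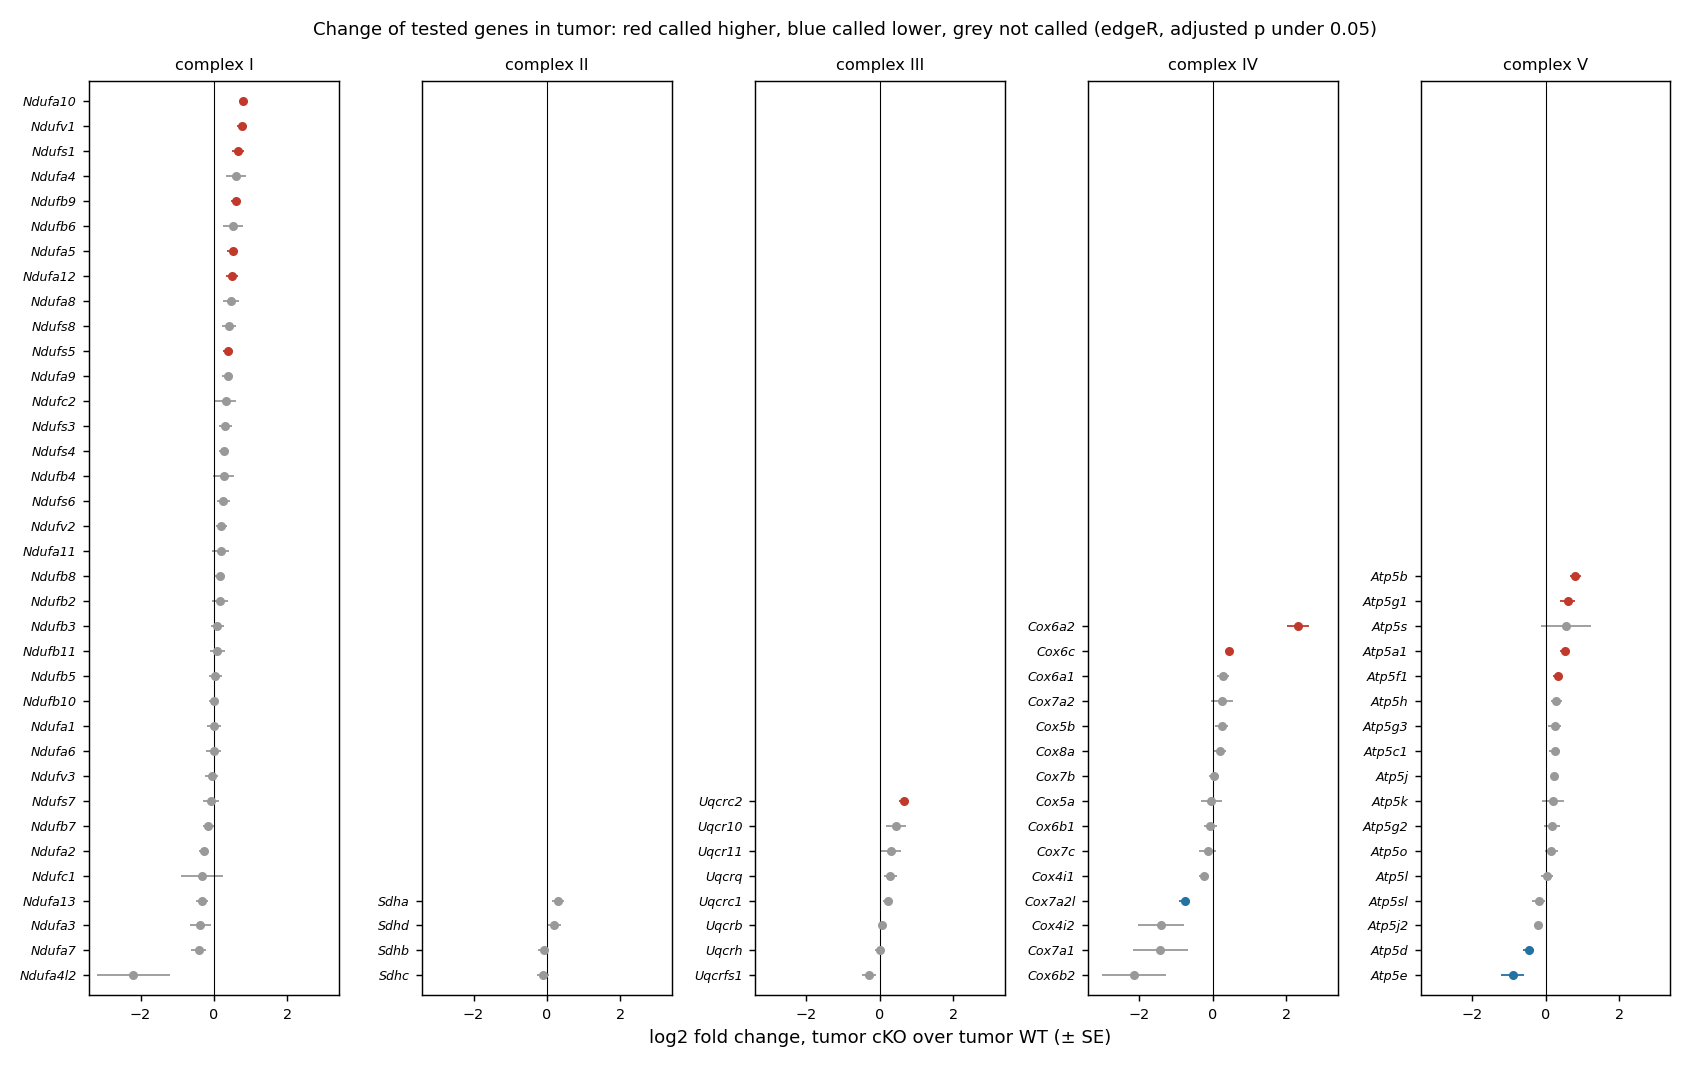
Log2 fold change of tumor cKO over tumor WT (horizontal axes) with its standard error for 80 of the 81 tested members, sorted within complex; red points were called higher, blue points lower and grey points were not called. The called members of complexes I and III lie between 0.39 and 0.79, and Cox6a2 of complex IV stands apart at 2.32.

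Complex I held 8 of the higher members and 0 of the lower ones. Its 21.6% called higher is near the 16.4% of all genes, while its 0% called lower stands against 21.6% of all genes. By edgeR no complex I member was lower at an unadjusted p under 0.05 either. DESeq2 called 9 higher and 0 lower, where it called 3115 of all 16831 genes higher and 4022 lower. Of the 7 nuclear core subunits, which carry the flavin, iron-sulfur clusters and quinone site, 3 were called higher (42.9%, median 0.41). Of the 28 accessory subunits 5 were (17.9%, median 0.17). Ndufv1, the core subunit that holds the flavin and takes electrons from NADH, had 37.2, 32.4 and 45.9 in tumor cKO, against 23.6, 22.2 and 22.3 in tumor WT, a log2 fold change of 0.76 ± 0.14 (SE, adjusted p = 0.00136). Ndufs1, the largest core subunit with several iron-sulfur clusters, had 14.5, 15 and 19.4 in tumor cKO, against 9.1, 12.6 and 9.33 in tumor WT (0.66 ± 0.16, adjusted p = 0.00551). For both genes every tumor cKO library lay above every tumor WT library.

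Among the accessory subunits of complex I, Ndufa10 moved most. It had 71.7, 68.1 and 89.2 in tumor cKO, against 43.1, 45.4 and 44.1 in tumor WT, and 0.79 ± 0.11 on the log2 scale (adjusted p = 0.000246). The tumor WT values were tight, and the lowest tumor cKO library was well above them. Ndufb9 had 102, 116 and 136 in tumor cKO, against 75.9, 72.2 and 83.4 in tumor WT (0.61 ± 0.14, adjusted p = 0.00396). Ndufa5 had 80.3, 80.9 and 95.8 in tumor cKO, against 65.6, 53.4 and 59.9 in tumor WT (0.52 ± 0.15, adjusted p = 0.0134), and was not called without tumor cKO replicate 3. Both showed the same separation of groups as Ndufa10. Ndufa12 (0.50) and Ndufs5 (0.39) were also called.

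Ndufa4, named for complex I but since described as a complex IV subunit, had 11.9, 15.6 and 17.9 in tumor cKO, against 10.3, 9.01 and 10.6 in tumor WT; its groups did not overlap and it was not called (0.61 ± 0.27, adjusted p = 0.0959). By edgeR it was called higher in a fit of the tumor libraries alone (0.66, adjusted p = 0.0387) and without spleen cKO replicate 3 (0.62, adjusted p = 0.0431). It was also called by edgeR without a composition factor (0.79, adjusted p = 0.0355). Limma, likewise without that factor, called it with either pseudocount (adjusted p = 0.0282 and 0.0407). Its relative Ndufa4l2, known to be induced by low oxygen, had 0.712, 0.251 and 0.0807 in tumor cKO, against 0.969, 3.32 and 0.502 in tumor WT, with overlap (-2.20, adjusted p = 0.113). Ndufa4l2 shares 30 exon bases with the abundant gene Shmt2 on the other strand, and the sources used here do not say whether strand was used in counting.

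No complex II gene was called in tumor, at an unadjusted p under 0.05 or by DESeq2 either. Sdha, the flavin subunit that oxidises succinate, had 74.6, 69.1 and 87.5 in tumor cKO, against 51.4, 84.1 and 52.5 in tumor WT (0.30 ± 0.17, adjusted p = 0.183). Tumor WT replicate 2 alone lay among the tumor cKO values, and without it Sdha was called higher at 0.57 (adjusted p = 0.001) and Sdhd at 0.46 (adjusted p = 0.0315). With all libraries, limma called Sdha higher with either pseudocount (adjusted p = 0.0465 and 0.0471). The iron-sulfur subunit Sdhb had 18.6, 21.6 and 23.4 in tumor cKO, against 20.6, 23.8 and 23.1 in tumor WT (-0.09 ± 0.14). The membrane anchors gave -0.11 ± 0.17 for Sdhc and 0.20 ± 0.19 for Sdhd.

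In complex III, 1 of 8 genes was called, or 12.5%, against 38.0% of all genes. Uqcrc2, a core protein on the matrix side, had 22.9, 22.9 and 28.9 in tumor cKO, against 15.7, 15.9 and 15.8 in tumor WT (0.66 ± 0.13, adjusted p = 0.00196). Uqcrb, a small subunit near the quinone site and the most abundant member of the complex, had 305, 288 and 310 in tumor cKO, against 280, 292 and 287 in tumor WT, 2 groups that overlapped (0.07 ± 0.09, adjusted p = 0.561). It was called higher by edgeR without a composition factor (0.25, adjusted p = 0.0374). Limma, likewise without that factor, called it with either pseudocount (adjusted p = 0.0279 and 0.0282). The 7 genes not called ranged in log2 fold change up from the -0.29 of Uqcrfs1, the Rieske iron-sulfur protein.

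Complex IV held the member with the largest change. Cox6a2, the form of subunit 6a known from heart and skeletal muscle (mm10 chromosome 7, 128205435 to 128206387, minus strand), had 47.2, 33.2 and 46.2 in tumor cKO, against 5.81, 12.4 and 6.82 in tumor WT. All 3 tumor cKO libraries were above the highest tumor WT library, and the log2 fold change was 2.32 ± 0.31 (adjusted p = 0.000168). Its common counterpart Cox6a1 had 31.5, 36.5 and 44.1 in tumor cKO, against 31.3, 26.1 and 35.4 in tumor WT, and was not called (0.28 ± 0.17, adjusted p = 0.227). Cox6a1 was called higher by edgeR without a composition factor (0.46, adjusted p = 0.0461). Limma, likewise without that factor, called it with either pseudocount (adjusted p = 0.0195 and 0.021). Cox6a2 thus made up 60%, 47.7% and 51.1% of the pair in tumor cKO, against 15.7%, 32.3% and 16.2% in tumor WT. In spleen its share was 11.6% to 18.7% in cKO and 15.7% to 21.6% in WT, close to that of 2 of the tumor WT libraries.

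Other genes and cell markers moved in the same libraries as Cox6a2. Cox6a2 shares 70 exon bases with Itgad on the opposite strand, and Itgad was lower in tumor cKO, at 0.394 ± 0.0733, than in tumor WT, at 0.848 ± 0.106 (SD, n = 3 each). The 10 striated muscle markers summed to 4.49 to 6.67 CPM in tumor cKO, against 6.74, 62.1 and 5.61 in tumor WT, where replicate 2 had both the most muscle marker counts and the most Cox6a2. The 8 dendritic cell markers summed to 53.9 to 131 in tumor cKO, against 246 to 770 in tumor WT. The 12 macrophage and monocyte markers were lower in tumor cKO, as given above. The 10 T cell markers summed to 703 to 949 CPM in tumor cKO, against 298 to 353 in tumor WT, and the 20 proliferation genes to 4787 to 6575 CPM in tumor cKO, against 1500 to 2224 in tumor WT. Their part in the Cox6a2 value was not tested.

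**Figure D3:**
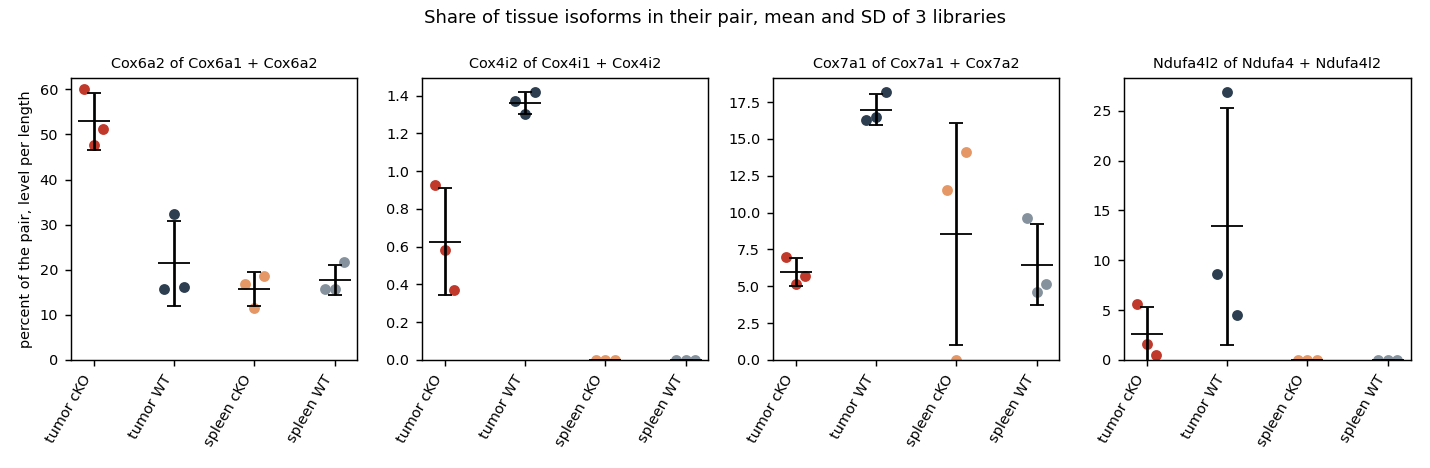
Share in percent of a tissue form in the sum of the levels per length of its pair (vertical axes, from 0), with 1 point per library and the mean and SD of 3 libraries, for tumor cKO, tumor WT, spleen cKO and spleen WT. Cox6a2 is the only one of the 4 forms plotted whose share was higher in tumor cKO than in tumor WT.

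None of the other tissue forms of complex IV was called in tumor by edgeR with all libraries, and each had a lower mean level in tumor cKO than in tumor WT. Cox4i2, the lung form of subunit 4, had 1.19, 0.763 and 0.59 in tumor cKO, against 2.07, 2.51 and 2.22 in tumor WT, groups that did not overlap (-1.41 ± 0.62, adjusted p = 0.104). Its common form Cox4i1 had 127, 130 and 160 in tumor cKO, against 148, 190 and 154 in tumor WT (-0.24 ± 0.13). Cox7a1, a heart and muscle form, had 1.04, 0.787 and 0.869 in tumor cKO, against 2.83, 1.74 and 2.82 in tumor WT (-1.43 ± 0.75, adjusted p = 0.149), while Cox7a2 gave 0.25 ± 0.31. Both tissue forms were thus below their tumor WT values in all 3 tumor cKO libraries. Fitting the tumor libraries alone, edgeR called Cox4i2 (-1.36, adjusted p = 0.0473) and Cox7a1 (-1.38, adjusted p = 0.0483) lower. Limma called Cox4i2 lower with either pseudocount (adjusted p = 0.000942 and 0.00657), and Cox7a1 with a pseudocount of 1 (adjusted p = 0.0481). Cox6b2, a testis form, gave -2.14 ± 0.87 (adjusted p = 0.0675), with 0.0771, 0.326 and 0.245 in tumor cKO, against 1.47, 0.255 and 1.2 in tumor WT. It was called lower by DESeq2 (-2.18, adjusted p = 0.0386), and by edgeR without tumor WT replicate 2 (-2.62, adjusted p = 0.0236) or without spleen WT replicate 3 (-2.13, adjusted p = 0.0448). The muscle form Cox8b had 0, 0 and 0.108 in tumor cKO, against 0.323, 0.784 and 0.67 in tumor WT, and Cox7b2 was at 0 in all tumor cKO libraries and at most 0.222 in tumor WT; both were too low to test.

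Of the 10 common complex IV subunits, 1 was called higher, or 10%, against 16.4% of all genes. This was Cox6c, a small membrane subunit, with 58.7, 62.5 and 77.2 in tumor cKO, against 44.6, 53.1 and 48.6 in tumor WT (0.44 ± 0.12, adjusted p = 0.0103). Cox7a2l, which joins complexes III and IV into supercomplexes, went the other way. It had 19, 16.7 and 16.1 in tumor cKO, against 26.6, 30.8 and 30.3 in tumor WT, a fall of every library (-0.76 ± 0.15, adjusted p = 0.00167). Cox5b, the complex IV member of highest mean level per length over all libraries, was not called (0.24 ± 0.18). It had 258, 327 and 333 in tumor cKO, against 287, 183 and 309 in tumor WT.

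In complex V the called subunits of the catalytic F1 head went in both directions, and the lower calls were lost in several fits. Atp5b, the catalytic beta subunit, had 484, 428 and 571 in tumor cKO, against 245, 330 and 273 in tumor WT (0.81 ± 0.14, adjusted p = 0.000899). Atp5a1, the alpha subunit, had 215, 212 and 248 in tumor cKO, against 149, 189 and 133 in tumor WT (0.52 ± 0.13, adjusted p = 0.00806). Both large subunits were higher in every tumor cKO library. Atp5d, the delta subunit of the central stalk, had 13.4, 13.6 and 13.6 in tumor cKO, against 18.2, 18 and 19.9 in tumor WT (-0.47 ± 0.15, adjusted p = 0.0278). Atp5e, the epsilon subunit beside it, had 7.63, 10.5 and 6.02 in tumor cKO, against 15.8, 10.3 and 18.9 in tumor WT (-0.90 ± 0.31, adjusted p = 0.0379), with an overlap of 1 library. The calls of Atp5d and Atp5e were lost without tumor cKO replicate 1 or 3 or without tumor WT replicate 1 or 3. The edgeR call of Atp5d was also lost without tumor cKO replicate 2 and with no filter on low counts (adjusted p = 0.173). That of Atp5e was also lost without spleen cKO replicate 3 (0.0516), with the replicate block (0.0554) and in a fit of the tumor libraries alone (0.0661). Without a composition factor neither was called (-0.28 for Atp5d and -0.71 for Atp5e). Limma called neither with either pseudocount (adjusted p from 0.0746 to 0.102). Atp5d shares 68 exon bases with Cbarp on the other strand, which gave -1.21 in the same comparison.

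The c ring, the rotor that turns with proton flow, is encoded by 3 genes for the same mature protein. Atp5g1 had 2.74, 2.48 and 3.4 in tumor cKO, against 1.89, 1.83 and 1.98 in tumor WT (0.60 ± 0.20, adjusted p = 0.0344), Atp5g2 gave 0.18 ± 0.22 and Atp5g3 0.24 ± 0.18. By level per length Atp5g1 was the least abundant, with 9.12% ± 1.05 of their summed level in tumor cKO and 7.18% ± 0.396 in tumor WT (SD, n = 3 each). This share depends on the listed lengths, 4912 bases for Atp5g1, 1675 for Atp5g2 and 2181 for Atp5g3. In unscaled counts Atp5g1 had 949 in tumor cKO and 640 in tumor WT. Atp5g2 had 981 and 963, and Atp5g3 had 2846 and 2489. Atp5f1, subunit b of the outer stalk, gave 0.33 ± 0.12 (adjusted p = 0.0458). The call of Atp5f1 was lost in 10 of the 12 fits that left out 1 library, every spleen library among them (0.21 without tumor WT replicate 2), with no filter on low counts (adjusted p = 0.101) and in a fit of the tumor libraries alone (0.0963). The call of Atp5g1 was lost in 5 of the 12, with no filter (adjusted p = 0.211) and with the replicate block (0.0517). Atp5h, subunit d of the outer stalk, had the highest mean level per length of complex V over the 12 libraries. Its mean was 309, against 289 for Atp5b, which was the higher of the pair in tumor cKO. Atp5h had 388, 301 and 384 in tumor cKO, against 265, 352 and 268 in tumor WT, and was not called (0.28 ± 0.15, adjusted p = 0.15). By edgeR it was called without tumor WT replicate 2 (0.43, adjusted p = 0.0162) and without a composition factor (0.45, adjusted p = 0.0295). Limma, likewise without that factor, called it with either pseudocount (adjusted p = 0.0333 and 0.0337).

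In spleen, no member was called between cKO and WT by edgeR, where 0.0297% of all genes were called, nor by DESeq2. At an unadjusted p under 0.05, 2 members were higher and 1 lower. The median log2 fold change was -0.03, and the members that rose in the tumor gave -0.14 ± 0.35 for Cox6a2, 0.03 ± 0.14 for Atp5b, -0.09 ± 0.11 for Ndufa10 and 0.09 ± 0.15 for Ndufv1. Cox6a2 had 3.13, 2.21 and 3.97 in spleen cKO, against 2.9, 3.1 and 4.45 in spleen WT, and these groups overlapped. Atp5g1 had the largest positive value, with 0.837, 0.714 and 0.766 in spleen cKO, against 0.448, 0.445 and 0.5 in spleen WT; its groups did not overlap, and it was not called (0.74 ± 0.23, adjusted p = 0.894).

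The difference between the cKO effect in tumor and that in spleen was tested as an interaction in the same edgeR model. In all, 8 members, or 9.88% of the 81 tested, were called higher in this difference and 0 lower. The 9.88% is near the 7.68% of all genes called higher, while 10.6% of all genes were called lower. By unadjusted p under 0.05, 14 members were higher and 1 lower, and by DESeq2 10 and 1. The 8 called by edgeR were Cox6a2 (2.46 ± 0.47, adjusted p = 0.00485), Ndufa10 (0.88 ± 0.16, adjusted p = 0.00425), Ndufa5, Atp5b, Ndufb9, Ndufv1, Uqcrc2 and Cox6c (0.64 to 0.77). All 8 were also among the 15 called in tumor, with which this difference shares its tumor libraries. The count was 4 without tumor cKO replicate 3 or without spleen cKO replicate 1, and 5 without tumor WT replicate 1 or without spleen WT replicate 2. In the 12 fits that left out 1 library, Ndufv1 lost its call in 8. Ndufb9 and Uqcrc2 lost theirs in 6 each, and Atp5b and Ndufa5 in 2 each.

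Tumor and spleen libraries differed far more than the genotypes did. In cKO libraries, 62 of the 81 members were called higher in tumor than in spleen and 3 lower, with a median log2 fold change of 1.09; 31.7% of all genes were called higher and 28.8% lower, with a median of 0.07. In WT libraries, 57 members were called higher in tumor and 1 lower, with a median of 0.77; 33.9% of all genes were called higher and 28.1% lower, with a median of 0.12. Every complex took part: in WT, 26 of 37 in complex I, 3 of 4 in complex II, 5 of 8 in complex III, 11 of 15 tested in complex IV and 12 of 17 in complex V were higher in tumor. The comparisons share libraries with each other and with the tumor contrast of cKO and WT. Of the 15 members called higher in tumor cKO than in tumor WT, 12 were also higher in tumor than in spleen in both genotypes. So were 40 of the 63 members not called in that contrast and 2 of the 3 called lower. The share of all genes with this pattern is not given here. Ndufs1, Uqcrc2 and Atp5a1 were higher in tumor than in spleen in cKO and not called in WT. Since the tumor and spleen libraries also differ in NK, B cell and macrophage markers as given above, and those markers' part in these values was not tested, the comparison is of the libraries as labelled.

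Atp5k, subunit e in the membrane part of ATP synthase (mm10 chromosome 5, 108433244 to 108434448, minus strand), differed most among members with reads in all groups. It had 78.3, 88.6 and 78 in tumor cKO and 2.86, 0.814 and 2.08 in spleen cKO, a log2 fold change of 5.35 ± 0.41 (adjusted p = 3.74e-07). In WT it had 91.3, 40.7 and 82.3 in tumor and 4.8, 2.44 and 2.76 in spleen (4.40 ± 0.39, adjusted p = 1.01e-06). Its listed exons overlap no other gene in the table. Cox6c was 2.67 ± 0.13 higher in tumor cKO and 2.04 ± 0.12 higher in tumor WT than in the spleen of the same genotype on the log2 scale. Cox5b was 2.71 ± 0.19 higher in tumor cKO and 2.41 ± 0.19 higher in tumor WT. Cox6a2 rose by 3.75 ± 0.35 in tumor cKO over spleen cKO and by 1.29 ± 0.33 in tumor WT over spleen WT. Cox4i2 and Ndufa4l2 had no read in any spleen library: taking 3 counts summed over a spleen group as the floor, Cox4i2 was at least 8.39-fold higher in tumor cKO and at least 22.6-fold higher in tumor WT, and Ndufa4l2 at least 4.19-fold higher in tumor cKO and at least 24.4-fold higher in tumor WT. These floors cover counting error only, and those of Ndufa4l2 rested on single libraries: they were 8.77-fold in WT without tumor WT replicate 2 and 1.78-fold in cKO without tumor cKO replicate 1. The call of Ndufa4l2 in cKO was lost without tumor cKO replicate 1 (adjusted p = 0.105) or 2 (0.0524), without any 1 spleen cKO library (0.0662 to 0.0771) and by limma with a pseudocount of 1 (0.261).

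Few members were lower in tumor. Atp5sl, named for ATP synthase but since described as the complex I assembly protein DMAC2, had 4.16, 4.72 and 4.65 in tumor cKO and 24.5, 23.1 and 21.1 in spleen cKO (-2.34 ± 0.18, adjusted p = 2.78e-07). In WT it had 5.56, 3.8 and 6.15 in tumor and 27.7, 27.4 and 21.2 in spleen (-2.30 ± 0.18, adjusted p = 2.89e-07). Cox7a2l was lower in tumor than in spleen in cKO (-0.88 ± 0.15, adjusted p = 0.000232), and gave -0.31 ± 0.15 in WT (adjusted p = 0.0865). Cox6b2 had 0.0771, 0.326 and 0.245 in tumor cKO and 0.795, 1.27 and 0.962 in spleen cKO (-2.21 ± 0.88, adjusted p = 0.0435). Its groups did not overlap, but the call was lost in 10 of the 12 fits that left out 1 library (adjusted p up to 0.142), with the replicate block (0.0691) and with no filter on low counts (0.0533).

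Among members, the difference between tumor and spleen was larger in those with short coding sequences, and the difference between tumor cKO and tumor WT was not. Members were split at a longest coding sequence of 500 nt in GENCODE vM21, a length chosen after the values were seen. In WT, the 49 shorter members had a median log2 fold change of 1.05 for tumor over spleen and the 31 longer ones 0.60, against 0.15 for 1354 other short coding genes and 0.09 for 11752 other long ones. In cKO the medians were 1.27 for the shorter members and 0.89 for the longer. For tumor cKO over tumor WT the order turned round, with 0.18 in shorter and 0.27 in longer members. Called higher in tumor cKO were 6 short members, or 12.2%, and 9 long ones, or 29%, against 10.9% of other short and 19.5% of other long coding genes, so that calls were fewer among short genes of either kind. Across the 80 members with a coding length, Spearman's rho of length with log2 fold change was 0.29 for tumor cKO over tumor WT and -0.47 for tumor WT over spleen WT. It was 0.33 for spleen cKO over spleen WT, where no member was called, so that a value of this size also came from a comparison without called members. Over the other coding genes it was 0.03 for tumor cKO over tumor WT and -0.05 for tumor WT over spleen WT. The genes share libraries and are not independent, so that these are descriptions with no p.

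**Figure D4:**
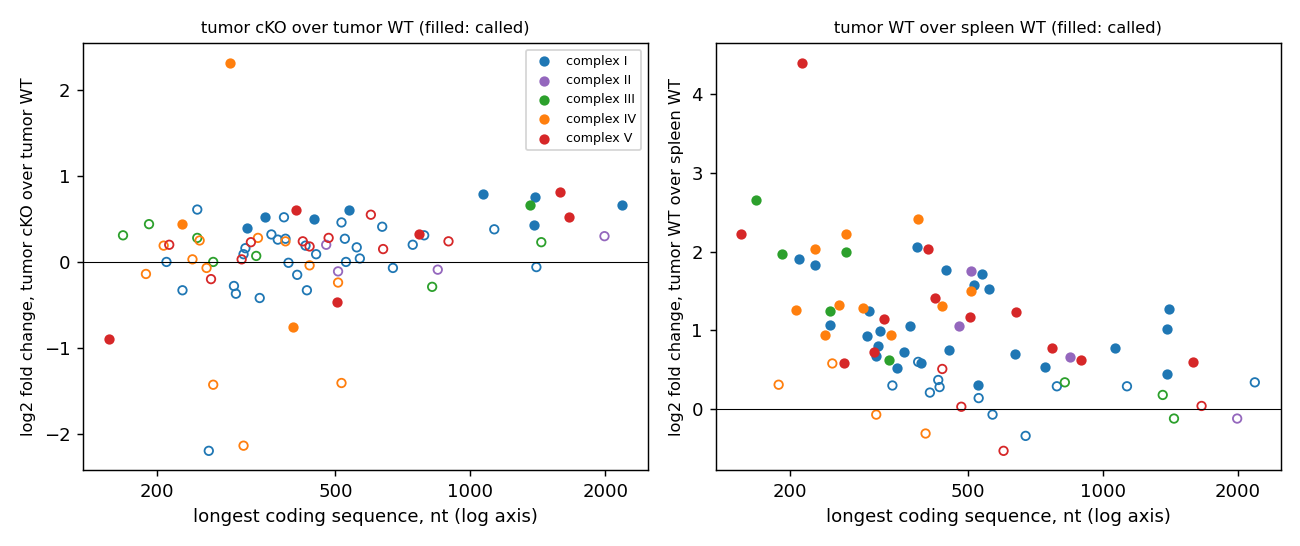
Log2 fold change of the 80 members with a coding length (vertical axes) against the length of its longest coding sequence (horizontal log axes), for tumor cKO over tumor WT on the left and tumor WT over spleen WT on the right; filled points were called, colours give the complex, and the genes without spleen reads are left out on the right. On the right the highest values lie at short lengths, with a rho of -0.47 when the left-out genes are included.

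Genes around the respiratory chain were followed as lists. Nuclear assembly factors, which build the complexes without remaining in them, had 14 of 48 called higher in tumor cKO than in tumor WT and 0 lower by edgeR, where 2 were lower at an unadjusted p under 0.05 and 2 by DESeq2. The list includes Ndufaf4 of complex I (1.17 ± 0.24) and Atpaf1 of ATP synthase (1.19 ± 0.29). Of 18 genes of the TCA cycle and pyruvate dehydrogenase, which supply the electrons, 12 were called higher and 1 lower. Idh3a, a subunit of NAD-dependent isocitrate dehydrogenase, had 31, 33.6 and 46.6 in tumor cKO, against 14.1, 20.7 and 13.5 in tumor WT (1.20 ± 0.18, adjusted p = 0.000279), while the NADP-dependent Idh2 was lower (-0.88 ± 0.22). These shares, 29.2% and 66.7%, stand against the 16.4% of all genes called higher. In tumor WT over spleen WT, 7 of the 48 assembly factors were called higher and 15 lower, with a median of -0.18. These 14.6% and 31.2% stand against 33.9% and 28.1% of all genes. In tumor cKO over spleen cKO, 29.2% of them were higher and 22.9% lower, against 31.7% and 28.8% of all genes.

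Regulators of mitochondrial biogenesis had 9 of 19 tested genes called higher in tumor cKO and 2 lower, or 47.4% and 10.5%, against 16.4% and 21.6% of all genes. Tfam, which packages and transcribes mitochondrial DNA, had 17.5, 17.6 and 19.6 in tumor cKO, against 10, 6.66 and 8.91 in tumor WT (1.10 ± 0.14, adjusted p = 0.000114). In WT it was lower in tumor than in spleen (-1.46 ± 0.14), so that the tumor WT libraries held the lowest Tfam values of all. The coactivator Ppargc1a was lower in tumor cKO (-2.81 ± 0.96, adjusted p = 0.0354), at levels of at most 0.123 in any tumor library. None of the regulators was higher in tumor WT than in spleen WT and 11 were lower, by edgeR and by DESeq2, at an unadjusted p under 0.05 as well. The 57.9% lower stands against 28.1% of all genes, and differs in direction from the members in the same libraries.

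The 13 protein-coding genes of mitochondrial DNA did not follow the nuclear members in the tumor contrast. None was called higher in tumor cKO than in tumor WT, also by DESeq2 or at an unadjusted p under 0.05, and 2 were called lower: mt-Nd6 (-0.86 ± 0.18, adjusted p = 0.00275) and mt-Nd3 (-0.63 ± 0.23, adjusted p = 0.0434). The 15.4% called lower stands against 21.6% of all genes, and the 0 called higher against 16.4%. Their median was -0.35, and -0.16 without a composition factor, where 1 was lower. In tumor over spleen they moved with the nuclear members, all 13 being called higher in cKO (median 1.48) and in WT (median 2.01). Of 6 other nuclear genes tested, Cycs, which encodes cytochrome c, had 41.8, 41.5 and 50.4 in tumor cKO, against 30.4, 28.5 and 27.9 in tumor WT (0.62 ± 0.11, adjusted p = 0.000936), and the carrier protein Ndufab1 gave 0.50 ± 0.15.

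Proliferation genes and markers of other cells moved in the same tumor contrast. Of 20 proliferation genes 19 were called higher in tumor cKO, Mki67 with 217, 173 and 240 in tumor cKO against 55.3, 71.1 and 44.4 in tumor WT (1.88 ± 0.19). All 12 macrophage and monocyte markers were called lower in tumor cKO (11 with RLE factors or DESeq2, 10 without a composition factor), 5 of 10 T cell markers higher and 8 of 10 NK cell markers lower. Tumor cKO replicate 3, without which the count of higher members fell to 9, had the lowest macrophage sum, 924, and the highest T cell sum, 949, of the tumor libraries. Tumor WT replicate 2, without which 19 members were called higher and 5 lower, had the highest macrophage sum, 13293, against 6358 and 7359 in the other tumor WT libraries. It also had the highest fibroblast marker sum, 1955, against 414 to 1040 in the other tumor libraries, the highest dendritic cell sum, 770, and an NK cell sum of 81.1, against 231 and 296 in the other tumor WT libraries. The fibroblast sum adds genes that moved in opposite directions between tumor cKO and tumor WT. Of its 7 tested markers, Thy1 was called higher in tumor cKO (1.34 ± 0.14). Col1a1 (-3.70), Col1a2 (-3.98) and Col3a1 (-3.82) were called lower, and 3 markers were not called. How much of each library's fibroblast sum came from Thy1 was not tested. The part of these cell markers and of proliferation in the change of the members was not tested.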

How the data were processed

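RNA was sequenced from 12 libraries, and the authors deposited whole-number counts per gene and RPKM values. Reads were aligned to mm10 with TopHat2 2.0.6, per the submitters' processing notes; no source used here names the counter or its strand setting. The deposited RPKM matched values recomputed from the counts within a relative tolerance of 0.0001, with totals 1.00007 to 1.000137 times those of the count table. Low counts (1 to 49) were mostly even numbers, 68.8123% to 73.3422% by library; whether both mates of a read pair were counted is not stated. Depth was 9542329 to 37118494 counts per library.

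Deposited counts were fitted with edgeR 4.0.16 in R 4.3.3 (filterByExpr, TMM factors, robust quasi-likelihood fit, 1 mean per group, 8 residual degrees of freedom), with Benjamini-Hochberg adjustment over 16831 genes. Standard errors are the log2 fold change divided by the square root of F. Alternatives were DESeq2 1.42.0, limma 3.58.1 on log2(RPKM + 1) and log2(RPKM + 0.1), other scalings and filters, and left-out libraries. The RPKM given to limma were the deposited ones, with no composition factor. Members and lists were chosen with earlier results of these data known. Named members were those called between genotypes (at most 5 per complex and direction) and the 3 largest called rises and falls between organs. All Sdh genes, the isoform families and the gene of highest mean level per length in each complex were named too. Ndufa12, Ndufs5, Uqcrfs1 and the list genes' calls outside that rule were named after their values were seen. Values of 1 complex I member are not reported here, though it is in the counts. No column of other samples was in the tables.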

Additional observations from a re-analysis of the deposited data

Results flagged for a closer look

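The cKO effect differed between tumor and spleen, by the interaction test in edgeR, for 8 members, all with a higher value in tumor. The differences of log2 fold changes were 2.46 for Cox6a2, 0.88 for Ndufa10, 0.77 for Ndufa5, 0.77 for Atp5b, 0.72 for Ndufb9, 0.67 for Ndufv1, 0.66 for Uqcrc2 and 0.64 for Cox6c. The 8 were 9.88% of the 81 members tested, near the 7.68% of all genes called higher in this test. In the 12 fits that left out 1 library, Ndufv1 lost its call in 8, and Ndufb9 and Uqcrc2 in 6 each. Groups of 3 libraries are too small for a test of single outlying libraries.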

How the results depend on the processing

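For tumor cKO over tumor WT, the members called higher were 26 without a composition factor, 29 by limma with a pseudocount of 1 and 28 with 0.1. Their medians were 0.38, 0.37 and 0.39. All of these settings, limma included, lacked the composition factor. Over all 16831 genes, the same settings called 3740, 4034 and 3921 higher, against 2761 by edgeR with the factor. Without the factor 1 member was called lower, and without tumor WT replicate 2 and tumor cKO replicate 3 together 5 were. Leaving out 1 library gave 9 to 19 higher, 1 to 5 lower and a median of 0.13 to 0.23. For tumor WT over spleen WT, 2 were lower without the factor and by limma with either pseudocount (medians 0.63, 0.60 and 0.63), and 3 with both libraries left out; leaving out 1 gave 52 to 58 higher, 1 to 3 lower and medians of 0.74 to 0.85. For tumor cKO over spleen cKO the ranges were 59 to 65, 2 to 3 and 1.0 to 1.14. In spleen no member was called without any 1 library, and the median was -0.08 to 0.02. For the difference of effects, DESeq2 called 1 lower, no filter left 5 higher, limma gave 16 higher and 1 lower with a pseudocount of 1 and 15 higher with 0.1, and leaving out 1 library gave 4 to 12 higher, 0 lower and medians of 0.17 to 0.27. Over all 16831 genes, limma called 2380 higher in that difference with a pseudocount of 1 and 2102 with 0.1. By edgeR 1293 were called higher with the composition factor and 1891 without it. Same-numbered libraries did not pair: their deviations correlated between -0.088 and 0.111. With the replicate block, 14 members were higher and 2 lower in tumor cKO than in tumor WT, with a median of 0.21. The cause of these shifts was not tested. No named member changed sign in a called value.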
